A study of Homo sapiens with 4 samples.

Results

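Transcripts of 3 genes that themselves encode RNA-binding proteins, LARP1, HNRNPA3 and ZC3H7B, are described here as sampled by iCLIP. Their regions were chosen by position: every region of the deposited list that overlaps, on build hg19, LARP1 (chromosome 5, 154092462 to 154197167), HNRNPA3 (chromosome 2, 178077291 to 178088686) or ZC3H7B (chromosome 22, 41697526 to 41756151), all on the plus strand. This gave 9 of the 1181 regions, 5 in LARP1, 1 in HNRNPA3 and 3 in ZC3H7B. By its name the list holds regions present in both experiments. A count of 1 read in each experiment is thus the least a listed region can have, and presence in both is no result. The genes were picked with the reads per region already known, so the amount of RNA recovered from them in each experiment is given as a description.

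The study holds 4 libraries from HEK293F, a suspension line of human embryonic kidney cells: each of 2 experiments paired a pull-down by an antibody to MOV10 with a control in which an irrelevant antibody, one to zebra finch FMRP, was used, and the labels number these experiments as replicates 1 and 2. All libraries came from UV-treated cells of this 1 line, and the labels give no genotype or other treatment. Each of the 2 deposited read lists is tied by the labels to the MOV10 and the control sample alike, so every value below belongs to an experiment and cannot be assigned to MOV10 or to control. Whether the experiments used separate cultures is not given in the sources used here, and 2 experiments give no estimate of spread beyond their difference. The lists hold 4021 reads for experiment 1 and 6032 for experiment 2, all of them inside listed regions, so these totals are not library depths.

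MOV10 is an RNA helicase that binds messenger RNA and is known to associate with Argonaute proteins and with the nonsense-mediated decay factor UPF1. In iCLIP, ultraviolet light links protein to RNA and reverse transcription often halts there, which places read starts next to the linked base. LARP1 is a La-related protein that binds messenger RNAs of ribosomal proteins and translation factors at their terminal oligopyrimidine motif. HNRNPA3 is a heterogeneous nuclear ribonucleoprotein of the A/B family, whose members bind nascent and spliced RNA. ZC3H7B is a zinc-finger protein of the CCCH type.

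Most of the regions lay close to the 3' ends of the genes. Of the 9, 8 began within 3000 nt of the gene's 3' end. The share of all regions this close to a gene's end was not counted, so nothing particular to these genes is read from it. In LARP1, regions 2 to 5 (numbered here from the 5' end of the gene) began 2845, 2514, 2332 and 2113 nt before the gene's end, with gaps of 309, 133 and 186 nt between them. The HNRNPA3 region began 1310 nt before the end of that gene, and the ZC3H7B regions 1865, 1096 and 753 nt before the end of theirs, with gaps of 738 and 279 nt.

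An hg19 annotation was not used here, so transcript parts were compared by length alone. Each gene has the same length in GENCODE release 29, on GRCh38, as in hg19: 104706 nt for LARP1, 11396 nt for HNRNPA3 and 58626 nt for ZC3H7B. In that annotation the transcripts that end at the gene's end carry a 3' untranslated stretch in their last exon of 3511 nt in LARP1-201, 4551 nt in HNRNPA3-202 and 2718 nt in ZC3H7B-201. The distances of the 8 regions from the gene's end are all shorter than these lengths. No position was transferred between the builds, so this is a comparison of lengths and not an assignment to exons. HNRNPA3 also has 3 shorter coding transcripts in that annotation, HNRNPA3-201, HNRNPA3-203 and HNRNPA3-204, which end 3873, 4271 and 4093 nt before the gene's end, larger distances than that of the region. The remaining region, LARP1 region 1, began 42775 nt after the start of the gene and 61930 nt before its end. A shorter LARP1 transcript of the same annotation, LARP1-204, begins 42673 nt after the gene's start with a first exon of 619 nt.

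**Figure D1:**
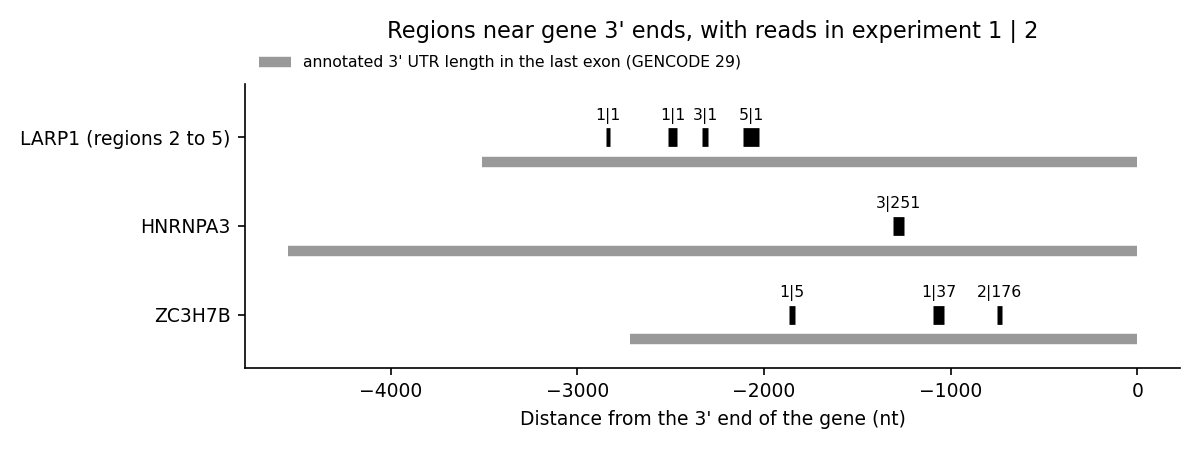
Position of the 8 regions nearest the gene 3' ends. The horizontal axis is the distance from the gene's 3' end in nt on hg19, black blocks are regions, the pair of numbers above each is its reads in experiment 1 and 2, and grey bars show the 3' untranslated length in the last exon of LARP1-201, HNRNPA3-202 and ZC3H7B-201 (GENCODE 29, lengths only). All 8 blocks lie at distances shorter than the grey bars, and LARP1 region 1, 61930 nt from the gene's end, is off the scale.

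In the 3 genes together, experiment 1 had 18 reads and experiment 2 had 474. These are 0.448% of the reads of experiment 1 (95% exact Clopper-Pearson interval 0.266 to 0.707) and 7.86% of those of experiment 2 (7.19 to 8.57). All intervals cover counting error alone. Counted as distinct fragments, so that reads sharing both ends count once, the genes held 12 of 1806 in experiment 1 and 31 of 1656 in experiment 2, or 0.664% and 1.87%. The gap between the experiments was thus wide by reads and narrower by fragments. Read names end in numbers that were taken as a copy number and a rank, and by summed copy numbers the genes held 25 of 16518 copies and 12572 of 88074, or 0.151% and 14.3%.

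HNRNPA3 and ZC3H7B made up this gap, and LARP1 lay in the other direction. LARP1 held 11 reads in experiment 1 and 5 in experiment 2, a share of 0.274% (interval 0.137 to 0.489) against 0.0829% (0.0269 to 0.193). The single HNRNPA3 region held 3 and 251 reads, 0.0746% (0.0154 to 0.218) against 4.16% (3.67 to 4.70). ZC3H7B held 4 and 218 reads, 0.0995% (0.0271 to 0.255) against 3.61% (3.16 to 4.12). The intervals of the 2 experiments do not overlap for HNRNPA3 and ZC3H7B, and they overlap for LARP1. They treat reads as independent, and the genes were picked with these reads known. How many of all regions have intervals that do not overlap was not counted, so nothing is read from this.

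Across all 1181 regions, a two-sided Fisher's exact test compared each region's share of reads between the experiments, adjusted by Benjamini-Hochberg, and 4.57% of regions passed at an adjusted p under 0.05. Those that passed and were higher in experiment 2 made up 2.12% of all regions. Of the 9 regions here 3 passed, HNRNPA3 and ZC3H7B regions 2 and 3, all higher in experiment 2. Because the genes were picked with these reads known, nothing is read from that count. By distinct fragments 0.423% of all regions passed and 0 of these 9 did (Fisher's exact test). HNRNPA3, with 1 and 12 fragments, had an adjusted p of 0.145 in the Fisher's exact test by fragments, and the adjusted p of the other 8 regions was 1. The share was higher in experiment 2 in 4 of the 9 regions, and in 16.9% of all regions. The median log2 ratio of shares, experiment 2 over experiment 1, was -0.59 over the 9 regions and -1.17 over all regions. A region with 1 read in each experiment has a ratio of -0.59, set by the totals of the lists alone. By distinct fragments 7 of the 9 regions and 78.3% of all regions had a higher share in experiment 2. The median was 0.13 in both sets. That is the value of a region with 1 fragment in each experiment, as 4 of the 9 regions were. For these the direction follows from the totals, so no turn in recovery is read from it. With the 20 regions that reach 50 reads in an experiment left out, 5 of the 7 regions left had a higher share by reads in experiment 2. Of all regions left, 49.1% did. LARP1 regions 1 to 3 were among the 5, and with 1 read in each experiment their direction also follows from the totals. As the comparison is between replicates, a difference here is one between replicates of the same pull-downs.

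**Figure D2:**
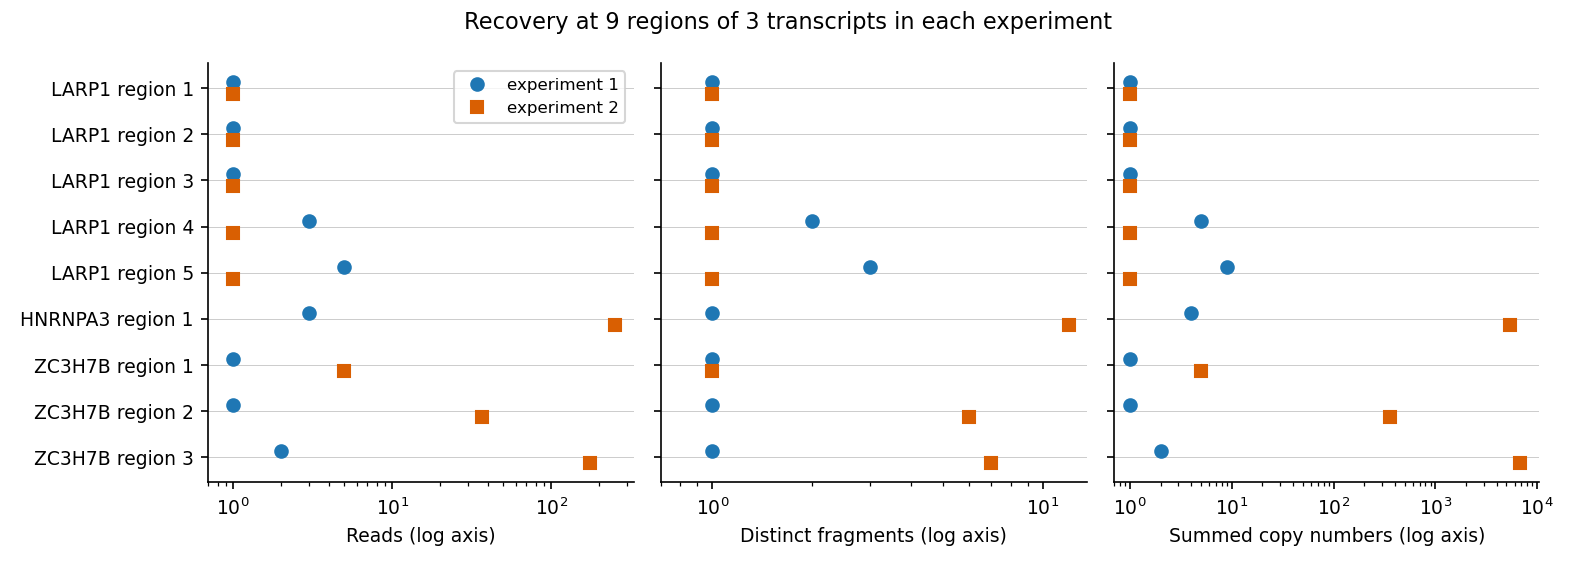
Reads, distinct fragments and summed copy numbers (log axes) of each of the 9 regions in experiment 1 (circles) and experiment 2 (squares), 1 value per experiment. The HNRNPA3 region and ZC3H7B regions 2 and 3 stand at 251, 37 and 176 reads in experiment 2 against 3, 1 and 2 in experiment 1, while all 5 LARP1 regions hold 1 read in experiment 2.

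LARP1 was sampled thinly, in regions 2 to 5 near the gene's 3' end and in region 1 far from it. Region 1 (154135237 to 154135299), region 2 (154194322 to 154194343) and region 3 (154194653 to 154194701) each held 1 read in each experiment. Region 4 (154194835 to 154194867) had 3 reads in experiment 1 against 1 in experiment 2, and region 5 (154195054 to 154195142) had 5 and 1. No LARP1 region passed the test of read shares (Fisher's exact test, adjusted p = 0.39 for region 5, 0.874 for region 4 and 1 for the others). For comparison, the median of all 1181 regions was 2 reads in experiment 1 and 1 in experiment 2, with quartiles of 1 and 4 reads in experiment 1. LARP1 region 5 thus lay above the upper quartile in experiment 1. Regions 1 to 3 lay at the lower one, which is also the least a listed region can hold.

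The LARP1 fragments ended at different bases from region to region and, in part, from experiment to experiment. In region 4 the fragment from 154194836 to 154194867 was found in both experiments with the same ends, 1 read each, and a fragment of equal width beginning 1 nt earlier held the other 2 reads of experiment 1. In region 2 the fragment of experiment 2 shared its 3' end with that of experiment 1 and began 1 nt downstream. Region 5 had the widest spread: in experiment 1, 3 reads began at 154195054 and 2 at 154195082, and the read of experiment 2 began at 154195054. In region 3 the read of experiment 2 began at 154194653 and that of experiment 1 at 154194667, 14 nt downstream. In region 1, away from the 3' end, the 5' ends differed by 1 nt (154135237 and 154135238), and the fragments were 63 and 33 nt wide. LARP1 thus had 7 distinct 5' ends from 11 reads in experiment 1 and 5 from 5 reads in experiment 2.

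HNRNPA3 gave a single region, chromosome 2 from 178087376 to 178087437, whose fragments shared a 3' end between experiments but not a 5' end. In experiment 1, 3 reads, 1 in each of the 3 groups of read names told apart by their prefix (06, 07 or none), all spanned the whole 62 nt. In experiment 2 no read began at that base. There, 229 of 251 reads (91.2%) began at 178087396, which is 20 nt downstream, 12 began 1 nt further on and 10 at 178087398. The base 178087437 was the 3' end of all 3 reads of experiment 1 and of 226 of the 251 in experiment 2. The fragment from 178087396 to 178087437, 42 nt wide, held 205 of the reads of experiment 2 and 5343 of its 5428 copies. The other 11 fragments of that experiment were 29 to 41 nt wide and held 1 to 12 reads each.

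By reads this region had rank 3 of 1181 in experiment 2 and rank 325, with ties, in experiment 1. By distinct fragments it had rank 8 in experiment 2. Of the 251 reads, 157 had a copy number of 1, and the 3 reads with the highest copy numbers, 1448, 1498 and 1930 in the groups named 06, 07 and without prefix, held 89.8% of the copies. All 3 had the same ends. Both ends of 241 reads (96%) lay within 3 nt of those ends. By their ends, the 251 reads are thus mostly 1 fragment listed many times, and how many molecules they stand for was not tested.

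ZC3H7B had 3 regions within 1139 nt, and they differed in depth. Region 1 (chromosome 22, 41754286 to 41754316) had 1 read in experiment 1 against 5 in experiment 2, a single fragment in each. These fragments shared their 3' end, and that of experiment 2 began 1 nt downstream. Region 2 (41755055 to 41755118) held 1 and 37 reads, and region 3 (41755398 to 41755424) held 2 and 176. In experiment 2 the reads per region thus increased toward the 3' end of the gene, whereas in experiment 1 the counts of 1, 1 and 2 show no order. By summed copy numbers the regions held 1, 1 and 2 in experiment 1 and 5, 362 and 6772 in experiment 2. By distinct fragments they held 1 each in experiment 1 and 1, 6 and 7 in experiment 2, so regions 2 and 3 lay close.

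In ZC3H7B region 2 the read of experiment 1 ran from 41755055 to 41755099, and all 37 reads of experiment 2 began at 41755075, 20 nt downstream. Of these, 32 ended at 41755118, and the other 5 ended at 5 different bases from 41755104 to 41755117. The 3' end of experiment 1 was not among them, so neither end was shared. Its 3 reads with most copies held 87, 100 and 134, 1 in each group of read names, and together 88.7% of the 362 copies.

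In ZC3H7B region 3 the experiments shared a fragment. Both reads of experiment 1 ran from 41755399 to 41755424, 26 nt, and 4 reads of experiment 2 had the same ends. Most reads of experiment 2, however, began 1 base upstream: 164 of 176 (93.2%) at 41755398, with 4 at 41755399 and 8 at 41755400. The fragment from 41755398 to 41755424 held 146 reads and 6687 of 6772 copies, and all 176 reads had both ends within 3 nt of it. As in HNRNPA3, 1 read in each group of read names stood far above the rest, with 1929, 1830 and 2558 copies, and 99 reads had a copy number of 1. These 3 reads held 93.3% of the copies.

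**Figure D3:**
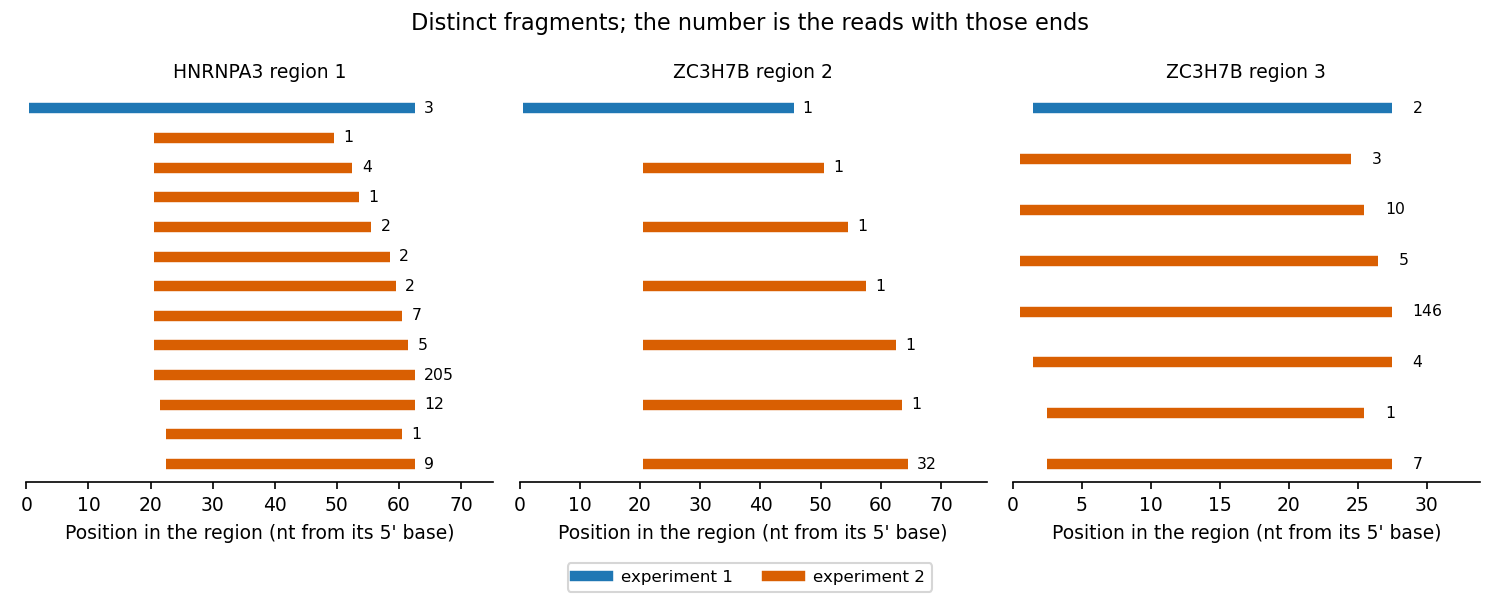
Distinct fragments of the HNRNPA3 region and of ZC3H7B regions 2 and 3, drawn from the 5' base of each region in nt, for experiment 1 (blue) and experiment 2 (orange), with the number of reads that have those ends. In HNRNPA3 and ZC3H7B region 2 the fragments of experiment 2 begin 20 nt or more inside the fragment of experiment 1, and in ZC3H7B region 3 they begin within 1 nt of it.

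The leading 5' end, the one with most reads (the most upstream where reads tied), was compared between experiments in every region. It lay within 1 nt in 6 of the 9 regions and in 1015 of all 1181 (85.9%). The 3 exceptions were LARP1 region 3, HNRNPA3 and ZC3H7B region 2. Among the 19 regions with at least 50 reads in experiment 2, which include HNRNPA3 and ZC3H7B region 3, it lay within 1 nt in 4. An offset of 20 nt downstream in experiment 2 was found in 2 of all 1181 regions, namely HNRNPA3 and ZC3H7B region 2. This offset was singled out after its values were seen, and 56 regions had an offset of 10 nt or more downstream. Fragments that ended at the same base in both experiments, and began at the same base or at the next one in experiment 2, occurred in 4 of the 9 regions, LARP1 regions 2 and 4 and ZC3H7B regions 1 and 3, and in 86.3% of all regions. A shift of the leading 5' end by 1 nt downstream in experiment 2 was the usual case over the list, with 843 of 1181 regions (71.4%). No shift was found in 164 (13.9%). The shifts of 1 nt downstream described above are thus shared with most regions. In ZC3H7B region 3 the shift was 1 nt upstream, which was found in 8 of all 1181 regions (0.677%).

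Mapping quality, the deposited score from 0 to 70 that was taken as the aligner's confidence in a position, is given here by gene. In LARP1 the median was 70 in experiment 1 and 61 in experiment 2, and the lowest values, 29 and 27, belonged to region 2, whose fragments were 22 and 21 nt wide. In HNRNPA3 all 3 reads of experiment 1 were at 70, as were 203 of 251 in experiment 2, where 10 reads lay under 30 and the lowest was 14. HNRNPA3 has 16 pseudogenes named after it in GENCODE 29, LARP1 has 1 and ZC3H7B none. How far the deposited score takes such copies into account was not tested.

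ZC3H7B was uneven. Region 1 was at 70 throughout. Region 2 was at 70 in experiment 1 and in 36 of 37 reads of experiment 2, where the other read was at 22. Region 3 never reached 70: both reads of experiment 1 were at 61, and in experiment 2 the values ran from 8 to 67 with a median of 37, and 20 of 176 reads lay under 30. Over all 1181 regions the median of the regions' medians was 70 in each experiment, and 148 regions in experiment 1 and 150 in experiment 2 had a median under 30. Of the 9 regions here only LARP1 region 2 had a median under 30, and that in both experiments.

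In ZC3H7B region 3, quality differed between reads of many copies and reads of few. There, 24 of the 176 reads of experiment 2 (13.6%) were at 67, the best value there, and these held 6365 copies, or 94% of the total. The 128 reads at 37 held 377 copies. The median quality was therefore 37 when each read counted once and 67 when each copy did, while reads under 30 were 11.4% of reads and 0.354% of copies. HNRNPA3 had no such gap: the median was 70 by reads and by copies in experiment 2, and the 203 reads at 70 held 98.3% of copies. In ZC3H7B region 2, also with a median of 70 both ways, the 36 reads at 70 held 361 of 362 copies. In all 3 regions the most copied reads carried the best quality of the region.

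**Figure D4:**
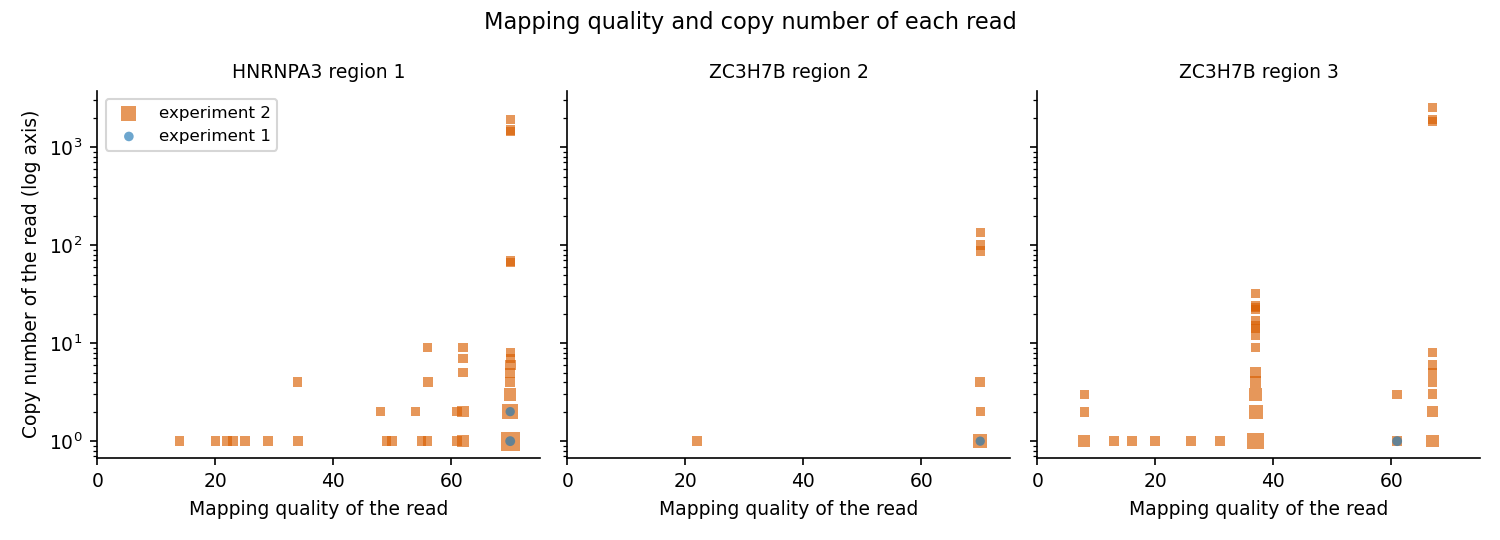
Mapping quality (horizontal axis, 0 to 70) and copy number (vertical log axis) of the reads of the HNRNPA3 region and ZC3H7B regions 2 and 3, with circles for experiment 1, squares for experiment 2, and marker size growing with the number of reads at the same point. The reads with the highest copy numbers sit at quality 70 in HNRNPA3 and ZC3H7B region 2 and at 67 in ZC3H7B region 3, where most other reads sit at 37.

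Quality also went with the width of the fragment. Among the 31 distinct fragments of the 9 regions in experiment 2, 5 were 17 to 25 nt wide, with a median best quality of 31. Those of 36 to 45 nt, 12 in number, had a median of 70. Between these the rise was not steady: the 7 of 26 to 30 nt had a median of 61 and the 7 of 31 to 35 nt one of 50. Over all fragments of experiment 2 the medians were 38, 67, 70 and 70 from the narrowest of these widths to the widest. Spearman's rho between width and best quality was 0.61 over the 31 fragments and 0.57 over all 1656, and 0.76 over the 12 fragments of experiment 1 and 0.53 over all 1806. These are descriptions without a test, since fragments of a region share sequence and library. The HNRNPA3 fragments that began at 178087396 show it at 1 site: their median quality was 20 at a width of 29 nt, 25 at 35 nt, 56 at 39 nt and 70 at 42 nt. Quality also varied at equal width: reads of the 27 nt fragment of ZC3H7B region 3 in experiment 2 ran from 8 to 67.

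The 3 groups of read names gave similar pictures within experiment 2. HNRNPA3 held 72, 99 and 80 reads in the groups named 06, 07 and without prefix, and each group had the same 3 5' ends. ZC3H7B region 3 held 57, 59 and 60, and region 2 held 14, 14 and 9. Region 1 of ZC3H7B had 3 reads in 07, 2 without prefix and 0 in 06. In experiment 1 no group held more than 2 reads of any of the 9 regions. What these groups are is not given in the sources used here, and since the same fragments recur in them they were not treated as replicates.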

How the data were processed

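The submitters' processing notes name build hg19 and the tools CASAVA 1.8.2, Novoalign, bedtools and SAMtools. Their order and settings, and how regions were called, are not stated there. The name of the region list says only that its regions are consolidated and present in both experiments. The deposited files are 2 lists of aligned reads, whose score of 0 to 70 was read as mapping quality, and 1 list of regions with no measurement. In all 9 regions the outermost read ends of the experiments were the region's limits. Copy numbers were read from the deposited read names, which is an inference. Positions are 1-based.

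Reads were assigned to regions by overlap, and distinct fragments are reads of an experiment with the same strand and ends. Each of the 1181 regions was tested for its share of reads (Fisher's exact test, two-sided, Benjamini-Hochberg adjusted). The test was checked on simulated reads drawn independently, so the check does not cover reads that are copies of a molecule. Such copies are not independent, so the p-values given here can be too small. The genes, the rule for naming them (every region overlapping the 3 genes) and the tests were chosen with earlier results of these data known. Other genes of RNA-binding proteins and sequences of the regions were not analysed here, as no annotation or genome of build hg19 was used. Software was Python 3.11.15 with scipy 1.17.1, pandas 2.3.3, numpy 2.4.6 and matplotlib 3.10.9 (random seed 1). Alternatives covered the unit counted, a mapping quality of 30, the groups of read names, totals, overlap, strand and the joining of 5' ends within 3 nt. Counting copies was added after seeing the data.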

Additional observations from a re-analysis of the deposited data

How the results depend on the processing

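Of 117 alternative values of 29 results, 87 were counted as staying. This meant the same side of the threshold, within 1.5 times a count or within the spread between experiments. Values by summed copy numbers had no test, and they counted as staying unless a region that passed by reads changed direction. Some of the 87 could not do otherwise. LARP1 regions 1 to 3, with at most 1 read in each experiment, could not pass in any setting. A change of direction in a region that did not pass was counted as staying. Regions whose share differed numbered 54 of 1181 by reads, 5 by distinct fragments, 25, 27 and 25 within the groups of read names without prefix, 06 and 07, and 14 without the 20 regions of 50 reads or more, where fewer reads or regions were used. HNRNPA3 and ZC3H7B region 3 passed by reads in each group of read names. ZC3H7B region 2 did not (Fisher's exact test, adjusted p = 0.383, 0.206 and 0.0619). The most copied read of each of these regions in experiment 2 had the same ends in every group. A pass in each group is therefore no separate support, and by distinct fragments none of these regions passed. The 3 genes held 9 regions in each experiment alone, which the list of regions present in both requires. They held 18 to 474 reads and 12 to 31 distinct fragments, against 492 and 43 in both. The median mapping quality of their reads in experiment 2 was 70, and 61 over distinct fragments. The distinct 5' ends of experiment 1 numbered 11 over all reads and 5, 6 and 6 within the groups, where fewer reads were used. Those of experiment 2 numbered 13 over all reads and 8 in the group named 06. With 5' ends within 3 nt joined, they numbered 10 in experiment 1 and 9 in experiment 2, so the order of the experiments turned. In experiment 2 joining took HNRNPA3 from 3 to 1 and ZC3H7B from 5 to 3, while LARP1 stayed at 5. No paired analysis was possible because each read list belongs to both pull-downs of its experiment. The LARP1 regions, with 1 to 5 reads in experiment 1 and 1 in experiment 2, give wide intervals.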
